A study of Mus musculus with 8 samples.

Results

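Gene expression in the liver of wild-type mice given carbon tetrachloride (CCl4) was compared with that of wild-type mice given vehicle. The members were the wild-type arrays of the study, 4 of its 8: 3 arrays labelled wild-type CCl4 (replicates 1, 2 and 3) and 1 labelled wild-type vehicle. The other arrays, of mice lacking Il4 and Il13, were not used. No allele or transgene is given for the wild-type mice. Each array held total liver RNA of Balb/c mice aged 2 months, labelled as biotinylated cRNA and hybridised to Illumina beads, which read 1 fluorescence intensity per probe. The dose, the route, the number of doses, the time after dosing, the sex and the nature of the vehicle are absent from the labels. Whether each array stands for an animal of its own is stated nowhere in the labels, so the p-values below measure only the spread between these 3 CCl4 samples, which may be technical, and the single vehicle sample was assumed to vary like them.

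Cytochrome P450 enzymes, chiefly Cyp2e1, convert the solvent CCl4 into a radical that damages membranes. Hepatocytes around the central vein hold most of these enzymes and die first, after which the surviving hepatocytes re-enter the cell cycle, phagocytes clear the dead cells, and stellate cells, the vitamin A-storing pericytes of the liver, turn into collagen-making myofibroblasts. Liver metabolism is laid out along the lobule: periportal cells make glucose and urea, and pericentral cells make glutamine and break down foreign compounds.

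The labelled tissue was checked against its defining markers. Ttr, Apoa1 and Hnf4a, markers of hepatocytes, were above background on all 4 arrays. The probe of Alb was at background, detected on 2 of 3 CCl4 arrays and not on the vehicle array. Per array, 9504 to 9821 of 25697 probes had a detection p-value under 0.01 after CCl4, against 8899 after vehicle. The T and NK cell markers Cd3e, Cd3d, Cd3g and Nkg7 and the eosinophil and mast cell markers Siglecf, Prg2, Epx, Ccr3 and Cpa3 were not detected on any array. The female transcript Xist was detected on all 4 arrays, the Y-linked Eif2s3y and Kdm5d on none, and the Y-linked Uty on 1 CCl4 array. The number of arrays limits the precision: the median standard error (SE) of a change was 0.275 on the log2 scale.

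After CCl4, 724 of the 6967 genes tested were higher and 628 were lower than after vehicle (limma, adjusted p under 0.05). These are 10.4% and 9.01% of the genes tested, the background against which each count below is read. A level is the background-corrected, quantile-normalized log2 intensity of a gene's brightest probe, a change is CCl4 minus vehicle on that scale with its SE, a signed number in brackets after a gene is its change, and an adjusted p is that of limma's moderated test with Benjamini-Hochberg adjustment over the 6967 genes. In all 1352 called genes the 3 CCl4 arrays lay on the same side of the vehicle array, so for a called gene this adds nothing. Genes that were not called can show it too, such as Cyp2c29 (6.74, 9.16 and 6.59 after CCl4, 9.80 after vehicle). The share of all genes tested that show it is not given here. The smallest change called was 0.798 in size. Counting only changes of at least 1 on the log2 scale left 566 higher (8.12%) and 495 lower (7.1%). The vehicle array was not well above background for 306 of the genes called higher, and no CCl4 array was for 112 of those called lower. Such genes passed the filter only through the group in which they were high, so counts were also taken over the 5964 genes detected on all 4 arrays, of which 7.01% were higher and 7.11% lower. Without CCl4 replicate 1 the counts were 395 higher and 252 lower, without replicate 2 they were 948 and 929, and without replicate 3 they were 565 and 471. The median change over all genes was -0.0208, and scaling the arrays by their medians moved it to 0.0892.

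Afp, Ly6d and Lcn2 were among the 12 largest increases, along with 6 genes of cell division. Afp, the serum protein of the fetal liver, had levels of 12.68, 12.19 and 12.29 on the CCl4 arrays, against 5.04 on the vehicle array. Its probe was not well above background after vehicle, so it was at least 69.2-fold higher (adjusted p = 1.28e-07). Ly6d, a small membrane-anchored surface protein, stood at 12.61, 11.31 and 12.45 after CCl4, against 5.31 after vehicle, at least 57.6-fold higher (adjusted p = 3.31e-06). In neither gene did the groups overlap, which the choice of the largest changes required. Lcn2, a lipocalin that binds bacterial siderophores, was above background in both groups, with 14.04, 13.79 and 13.81 on the CCl4 arrays and 7.59 on the vehicle array, a rise of 6.29 ± 0.26 (adjusted p = 1.92e-07). The transcript D17H6S56E-5, for which no role is given here, was at least 30.4-fold higher, and Psat1, the aminotransferase of serine synthesis, at least 17.1-fold. Fos, an immediate early transcription factor, was at least 18.2-fold higher with a wide spread, at 8.64, 11.21 and 11.53 after CCl4, against 5.25 after vehicle. The 6 cell division genes were Birc5, Cdc20, Prc1, Stmn1, Cdca3 and Uhrf1, whose values follow with their group.

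Among the 12 largest decreases were secreted, detoxifying and steroid-metabolising products of hepatocytes. Mup2, a major urinary protein that carries pheromones, stood at 5.27, 5.22 and 4.83 on the CCl4 arrays, none of them well above background, against 14.19 on the vehicle array, and was at least 295-fold lower (adjusted p = 2.23e-08). Major urinary protein genes are near-identical copies, so which of them the probe reads is uncertain. Hsd3b5, a hydroxysteroid dehydrogenase of mouse liver, had 6.09, 5.97 and 6.56 after CCl4 and 11.50 after vehicle, a change of -5.29 ± 0.30 (adjusted p = 1.36e-06). The sulphotransferase Sult2a8 (-4.52), the hepcidin copy Hamp2 (-4.47), Csrp3, a LIM protein known from striated muscle (-4.33), and the carboxylesterase Ces3b (-4.32) followed. Dio1, the deiodinase that activates thyroid hormone, stood at 6.65, 6.98 and 5.98 after CCl4, against 10.67 after vehicle, changed by -4.14 ± 0.36 and was detected on 2 of 3 CCl4 arrays. The guanylate-binding protein Gbp11 changed by -4.13 ± 0.36 and was detected on 1 of 3. For each of these 8 genes all CCl4 arrays lay below the vehicle array, which their choice required. In RNA of whole liver, fewer cells of a type and less RNA per cell cannot be told apart. The remaining 4, Slc1a2, Cyp1a2, Ugt3a1 and Cyp7b1, are described with their groups.

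**Figure D1:**
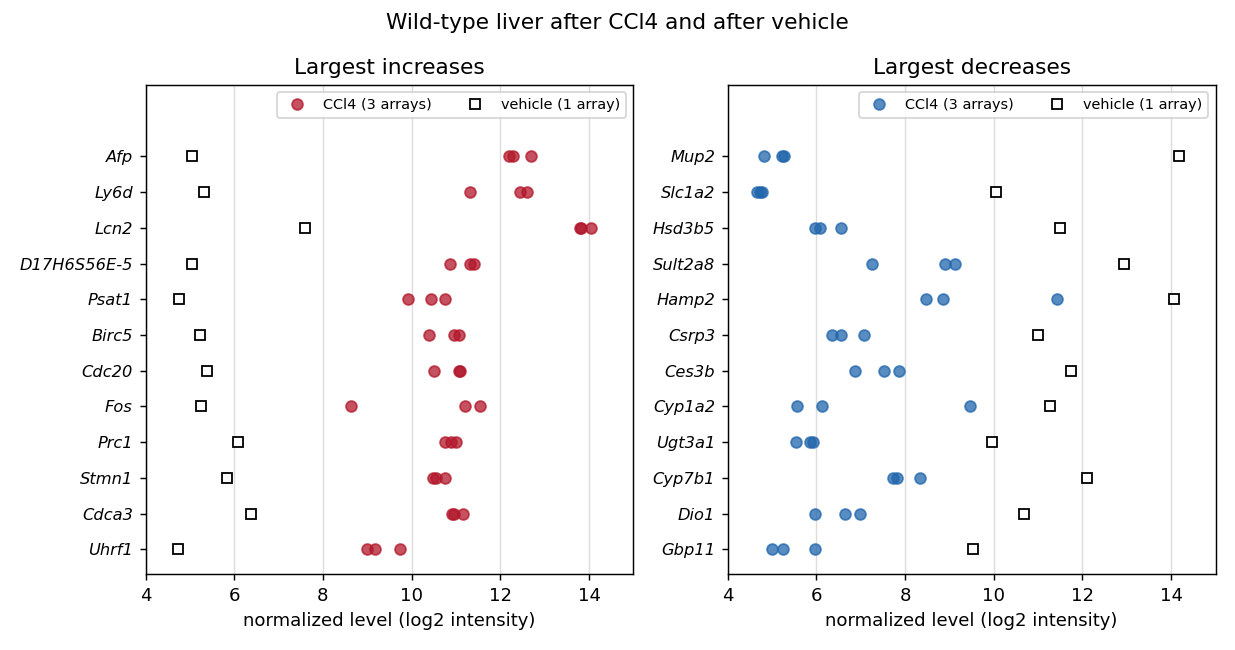
Normalized log2 level of the 12 genes with the largest increases (left) and the 12 with the largest decreases (right), 1 row per gene. Filled circles are the 3 CCl4 arrays and open squares the vehicle array. The groups do not overlap in any row, which the choice of these genes required. The CCl4 points of Fos, Hamp2 and Cyp1a2 are spread most widely.

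Genes of the pericentral zone fell. Glul, which makes glutamine in the cells next to the central vein, had levels of 5.97, 5.84 and 5.64 on the CCl4 arrays, all at background, against 8.83 on the vehicle array, at least 7.17-fold lower (adjusted p = 3.07e-05). Slc1a2, the glutamate transporter of the same cells, was at 4.72, 4.76 and 4.65 after CCl4 and 10.05 after vehicle, at least 16.8-fold lower (adjusted p = 4.96e-07). Both were therefore measured after vehicle and not well above background on any CCl4 array. Oat, which turns ornithine towards glutamate, had 11.76, 11.88 and 10.99 after CCl4, against 13.53 after vehicle, and fell by 1.98 ± 0.35. Of the Wnt pathway genes of this zone, the transcription factor Sp5 was at least 2.64-fold lower and the R-spondin receptor Lgr5 at least 1.34-fold lower, while the feedback inhibitor Axin2 changed by -0.26 (adjusted p = 0.592). Slco1b2, a transporter that takes organic anions into hepatocytes, fell by 2.73 ± 0.43. In all, 10 of the 18 pericentral genes measured were lower and 0 higher (limma, 0 higher at an unadjusted p under 0.05), and among the 13 detected on all 4 arrays 5 were lower.

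The P450 enzymes fell unevenly. Cyp2e1, the main activator of CCl4, had 12.67, 13.69 and 12.68 on the CCl4 arrays, against 14.08 on the vehicle array, with a change of -1.07 ± 0.38 that did not pass the test (adjusted p = 0.0766). Cyp3a11, which oxidises many drugs, likewise did not pass, at 11.80, 13.06 and 11.74 after CCl4 and 12.98 after vehicle, where replicate 2 lay above the vehicle array. Cyp1a2, which breaks down caffeine and aromatic amines, was at 5.55, 9.47 and 6.13 after CCl4, against 11.26 after vehicle. It changed by -4.21 ± 1.07 (adjusted p = 0.0191, detected on 2 of 3 CCl4 arrays), and replicate 2 kept a far higher level than the other two CCl4 arrays. Cyp2b13 had 9.42, 9.67 and 9.18 after CCl4, against 11.42 after vehicle. Cyp2b9 changed by -1.23, Cyp4f15 by -1.28 and Cyp2c50 by -1.97. Members of the Cyp2b and Cyp2c subfamilies are similar enough in sequence that a probe may read more than 1 of them. A single member rose: Cyp2c55, at 7.80, 9.29 and 7.81 after CCl4, against 5.64 after vehicle, where its probe was not well above background, was at least 4.06-fold higher. Of 28 P450 genes and partners measured, 12 were lower and 1 higher, with a median change of -1.11. The count of lower genes was 4 without CCl4 replicate 1 and 4 without replicate 3. Replicate 2 had the highest level of the 3 CCl4 arrays in 23 of the 28 genes. Cyp1a2 and Cyp2c50 did not pass without CCl4 replicate 1 (adjusted p of 0.0826 to 0.0961), nor Cyp1a2 and Cyp2c50 without replicate 3 (adjusted p of 0.0523 to 0.0958).

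Conjugating enzymes couple glucuronate, sulphate, glutathione or methyl groups to foreign compounds. Of the 25 measured, 23 had a negative change, against 3582 of the 6967 genes tested. Ugt3a1, a UDP-glycosyltransferase, had 5.54, 5.92 and 5.85 on the CCl4 arrays, against 9.97 on the vehicle array (-4.20 ± 0.27, adjusted p = 3.95e-06), and was detected on 1 of 3 CCl4 arrays. Its relatives Ugt3a2 (-2.68), Ugt1a6a (-2.63) and Ugt2b1 (-1.64) also fell, while Ugt2b34 (-0.66) and the phenol sulphotransferase Sult1a1 (-0.21) did not pass the test. Gstp1, a glutathione transferase that is low in normal liver and marks altered hepatocytes in rats, rose, with 14.22, 14.32 and 14.04 after CCl4 and 12.41 after vehicle (1.79 ± 0.26, adjusted p = 0.00106). Of 25 genes measured, 8 were lower and 1 higher, with a median of -1.01. The lower count was 4 without CCl4 replicate 1, 16 without replicate 2 and 13 after median scaling. Ugt2b1 did not pass without CCl4 replicate 1 (adjusted p = 0.0638).

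Genes of the periportal zone and the urea cycle fell in part. Cyp2f2, a periportal P450, was at 11.80, 12.28 and 11.42 after CCl4, against 12.36 after vehicle, and did not pass the test (adjusted p = 0.294), nor did Hal, which opens histidine breakdown (-0.84, adjusted p = 0.0622). Cps1, which starts the urea cycle, had 13.71, 14.0004 and 13.20 on the CCl4 arrays and 13.47 on the vehicle array, and arginase 1 (Arg1), which ends it, had 13.50, 14.07 and 13.47 after CCl4 and 13.50 after vehicle. The groups overlapped in both genes, and neither passed. Otc, the cycle's ornithine carbamoyltransferase, fell by 1.86 ± 0.38. Pck1, the first enzyme of glucose synthesis (-1.75 ± 0.30), and the pheromone carrier Mup20 (-3.31 ± 0.38) fell too. Of the enzymes of amino acid breakdown, Prodh, which oxidises proline (-2.63), Haao, which acts on a product of tryptophan (-1.98), Agxt, which detoxifies glyoxylate (-1.64), and Hpd, of tyrosine breakdown (-2.06), were lower. Apoa4 and E-cadherin (Cdh1), listed here as periportal, rose by 3.06 ± 0.31 and 1.87 ± 0.35. Of the 21 periportal genes, all detected on the 4 arrays, 7 were lower and 2 higher, and of 27 genes of the urea cycle and amino acid breakdown 5 were lower. These lower counts were 4 and 2 without CCl4 replicate 1, and 4 and 3 without replicate 3. Without replicate 2, which was the highest CCl4 array in 26 of the 27 genes, 13 of them were lower. Haao, Agxt and Hpd did not pass without CCl4 replicate 1 (adjusted p of 0.076 to 0.174), nor Agxt and Hpd without replicate 3 (adjusted p of 0.0546 to 0.14).

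Bile acid genes fell, in synthesis as well as in transport. Cyp7a1, the rate-limiting enzyme of bile acid synthesis, stood at 8.47, 10.49 and 8.98 after CCl4, against 11.35 after vehicle, a change of -2.04 ± 0.58 (adjusted p = 0.0307). Cyp7b1, of the alternative pathway, had 7.82, 8.33 and 7.73 on the CCl4 arrays and 12.11 on the vehicle array, and its change of -4.15 ± 0.30 was the largest of the group (adjusted p = 8.18e-06). The 3 CCl4 arrays lay below the vehicle array in both, as in all genes called lower. Cyp8b1, which sets the ratio of cholic acid, changed by -1.49, Cyp27a1, which oxidises the side chain, by -1.72, and Hsd3b7, which acts on the ring, by -1.26. The uptake carrier Slc10a1 changed by -1.28 and was detected on 1 of the 3 CCl4 arrays, and Abcg8, which with Abcg5 exports cholesterol into bile, had 8.51, 8.85 and 8.11 after CCl4, against 10.48 after vehicle, and was called lower (adjusted p = 0.00156). In all 12 of 21 measured genes were lower. The exporter Abcc2 was the 1 gene of the group that rose, by 1.37 ± 0.31. Without CCl4 replicate 1 the lower count was 5. Cyp7a1, Cyp8b1, Slc10a1 and Abcc2 did not pass without CCl4 replicate 1 (adjusted p of 0.0645 to 0.119), nor Cyp7a1 without replicate 3 (adjusted p = 0.11).

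Genes under growth hormone, whose release differs between male and female mice, fell. The growth hormone receptor (Ghr) had 10.60, 11.56 and 10.48 on the CCl4 arrays, against 12.58 on the vehicle array (-1.70 ± 0.39, adjusted p = 0.0113), and the feedback inhibitor Socs2 changed by -1.54 ± 0.37. The arrays of the 2 groups overlapped in neither, as in no called gene. A1bg, which is higher in females, stood at 5.66, 6.72 and 5.44 after CCl4 and 9.75 after vehicle (-3.80 ± 0.42, detected on 1 of 3 CCl4 arrays). The female-biased A1bg, Cyp2b9 and Cyp2b13 were lower along with the male-biased Hsd3b5, Cyp7b1 and Mup20. Of 22 genes measured, 15 were lower and 0 higher (limma, 0 higher at an unadjusted p under 0.05), and of the 19 detected on all 4 arrays 12 were lower. Ghr and Socs2 did not pass without CCl4 replicate 1 (adjusted p of 0.0526 to 0.0726).

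Lipid and sugar metabolism changed gene by gene. Apoa4, a lipoprotein component of the fed gut and the fatty liver, had 13.99, 13.44 and 14.07 on the CCl4 arrays, against 10.78 on the vehicle array (adjusted p = 7.32e-05). Apoc2, the cofactor of lipoprotein lipase, rose by 1.95 ± 0.35, that lipase itself (Lpl) by 1.82 ± 0.29, Apom by 1.48 ± 0.26, and Mttp, which loads lipid onto apolipoprotein B, by 0.97 ± 0.27. The abundant Apoa1 (0.33) and Apoa2 (0.12) did not pass, and 5 of 19 genes of lipid export measured were higher. In fatty acid synthesis the desaturase Scd1 (-1.85), the acetate-activating Acss2 (-1.79), the lipogenic regulator Thrsp (-3.11, detected on 2 of 3 CCl4 arrays) and Dgat2, which makes triglyceride (-1.22), were lower, while Acaca (0.41) and Acly (0.53), which supply malonyl-CoA and acetyl-CoA, did not pass. Lpin1, a phosphatidate phosphatase, was at least 1.49-fold higher. Of 19 genes of fatty acid synthesis 5 were lower, and leaving out CCl4 replicate 1, 2 or 3 gave 2, 8 or 3. Of fatty acid oxidation, Cpt2 (-0.16), Acadm (0.12) and Acadl (0.22) of the mitochondrial pathway did not pass, and the 4 genes called lower of 23 were Acot3 (-2.11), Acot4 (-1.01), Acaa1b (-1.20) and Ehhadh (-0.97), which are peroxisomal. That count was 1 without CCl4 replicate 1 and 2 without replicate 3. Sqle, an oxygenase of cholesterol synthesis, was at 10.44, 8.58 and 10.32 after CCl4, against 7.64 after vehicle (2.15 ± 0.57, adjusted p = 0.0238), whereas Hmgcs1 (0.22) and Pmvk (-0.41) of the same route did not pass and Tm7sf2 (-2.08) and Sc5d (-1.76) fell. Lss, which forms lanosterol, rose by 1.01 ± 0.30 and the sterol sensor Insig1 fell by 0.96 ± 0.27. Of 18 genes of cholesterol synthesis 2 were higher and 3 lower, and 4 were higher without CCl4 replicate 2. Without replicate 1 or 3 the higher count was 0 (limma, 3 and 3 higher at an unadjusted p under 0.05). Mttp, Acss2, Dgat2, Lpin1, Acot4, Acaa1b, Ehhadh, Sqle, Lss and Insig1 did not pass without CCl4 replicate 1 (adjusted p of 0.0537 to 0.121), nor Mttp, Dgat2, Acot4, Ehhadh, Sqle and Lss without replicate 3 (adjusted p of 0.0546 to 0.0889).

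Of 12 glycolytic genes measured, 4 were higher and 2 lower. Pkm, the pyruvate kinase of non-hepatic tissues, had 8.92, 8.71 and 9.42 on the CCl4 arrays and 6.77 on the vehicle array (2.25 ± 0.31, adjusted p = 0.000723). Ldha, which makes lactate, rose by 1.59 ± 0.26 and Gapdh by 1.27 ± 0.28, so that Gapdh was not level between the groups. Khk, the fructokinase of hepatocytes, fell by 1.60 ± 0.29 and Aldoc, the aldolase of brain, by 1.03 ± 0.26. The hexokinase Hk2 (adjusted p = 0.0778) and the phosphofructokinases Pfkl (0.51) and Pfkm (-0.35), of liver and of muscle, did not pass. Glucose-6-phosphatase (G6pc), the last step of glucose release, stood at 9.65, 11.31 and 11.25 after CCl4, against 12.52 after vehicle (-1.78 ± 0.53, adjusted p = 0.038). Igfbp1, a binding protein of insulin-like growth factors that insulin represses, rose, at 11.42, 10.62 and 11.09 after CCl4 and 7.45 after vehicle (3.59 ± 0.32, adjusted p = 3.13e-05). Without CCl4 replicate 1, 2 glycolytic genes were higher and 1 lower. Gapdh and Aldoc did not pass without CCl4 replicate 1 (adjusted p of 0.0537 to 0.0587), nor G6pc without replicate 3 (adjusted p = 0.0545).

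**Figure D2:**
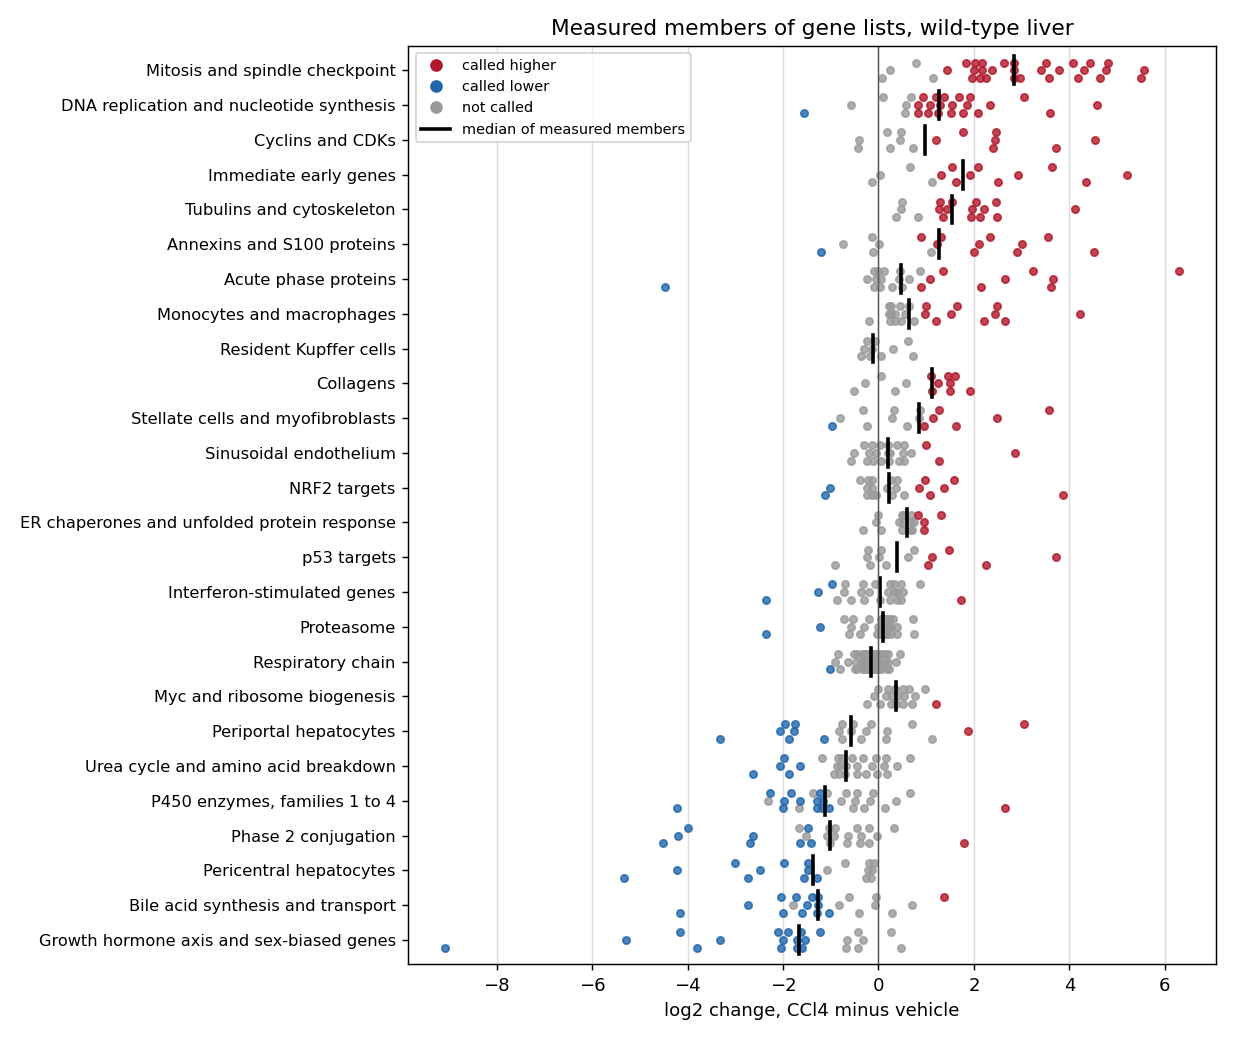
Log2 change (CCl4 minus vehicle) of every measured member of a selection of gene lists, 1 row per list. Red points were called higher, blue points lower and grey points neither, and the black bar is the median of the members measured. Mitosis lies farthest to the right, the growth hormone, pericentral and bile acid lists lie to the left of 0, and the respiratory chain and proteasome lists lie around 0.

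Some stress genes changed. Of the targets of NRF2, the transcription factor that answers oxidants, Gsta1, a glutathione transferase, had 10.93, 10.75 and 10.49 on the CCl4 arrays and 6.86 on the vehicle array (3.86 ± 0.28, adjusted p = 7.72e-06). Its near copy Gsta2 rose by 1.59 ± 0.32, and the 2 probes may share transcripts. The aldo-keto reductase Akr1b8 was at least 1.16-fold higher. Heme oxygenase (Hmox1) rose by 0.98 ± 0.28, while Nqo1, a quinone reductase, did not pass (0.53 ± 0.26) and Gclc, of glutathione synthesis, fell by 1.12 ± 0.27. Of 22 targets measured 6 were higher and 2 lower, and without CCl4 replicate 1 the higher count was 2. Psat1 and the asparagine synthetase Asns, targets of ATF4 under amino acid shortage, were at least 17.1-fold and 1.51-fold higher, whereas Ddit3, the stress factor CHOP, did not pass (0.33) and Chac1 fell by 1.48 ± 0.36. The stress protein Nupr1 was at least 1.26-fold and the amino acid transporter Slc7a5 at least 1.5-fold higher. In all 4 of 11 ATF4 targets measured were higher and 1 lower, but 4 passed the filter only through the CCl4 arrays. Among the 7 detected on all 4 arrays 0 were called higher and 1 lower. The median change was 0.45 over the 11 and -0.10 over the 7. Of the chaperones of the endoplasmic reticulum Pdia6 rose by 1.32 ± 0.29, Hyou1 by 0.95 ± 0.27, Pdia3 by 0.83 ± 0.25 and Pdia4 by 0.94 ± 0.30, but Hspa5 (0.54), Herpud1 (-0.33) and Xbp1 (0.51), the usual readouts of this response, did not pass. The 4 genes called of 18 became 0 without CCl4 replicate 1 (limma, 6 higher at an unadjusted p under 0.05) and 2 without replicate 3. Of 14 cytosolic and mitochondrial heat shock chaperones 1 passed, Bag3 (0.95 ± 0.27), while Hsph1 (-0.30), Hspa8 (-0.14) and Hsp90aa1 (0.65) did not. The inducible metallothionein Mt2 rose by 1.09 ± 0.26, and Mt1 did not pass (0.12, adjusted p = 0.795). Of the zinc transporters Slc39a14 was at least 1.83-fold higher, Slc30a7 rose by 0.92 ± 0.29 and Slc30a1 did not pass (-0.21). The 3 genes called of this list became 0 without CCl4 replicate 1 (limma, 3 higher at an unadjusted p under 0.05) and 1 without replicate 3. With all arrays kept, the count was also 1 under quantile normalization without background correction, the deposited value table, offset 50 or no filter on detection. Akr1b8, Hmox1, Gclc, Chac1, Slc7a5, Pdia6, Hyou1, Pdia3, Pdia4, Bag3, Mt2, Slc39a14 and Slc30a7 did not pass without CCl4 replicate 1 (adjusted p of 0.0584 to 0.157), nor Hmox1, Chac1, Pdia3, Pdia4, Bag3, Slc39a14 and Slc30a7 without replicate 3 (adjusted p of 0.0503 to 0.0874).

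Targets of p53, the DNA damage factor, rose in part. Cdkn1a, the p21 inhibitor of cyclin-dependent kinases, had 10.87, 9.96 and 10.22 on the CCl4 arrays, against 6.64 on the vehicle array (3.71 ± 0.34, adjusted p = 4.17e-05). Mdm2, which degrades p53, rose by 1.03 ± 0.27, Ccng1 by 1.48 ± 0.26 and Trp53inp1 by 1.12 ± 0.30, and Phlda3, an Akt inhibitor, was at least 3.06-fold higher. These 5 were the targets called, of 14 measured, and 3 were called without CCl4 replicate 1. Of the regulators of cell death, Tnfrsf12a, the receptor of the cytokine TWEAK, stood at 11.32, 10.0007 and 11.28 after CCl4, against 7.09 after vehicle (3.77 ± 0.45, adjusted p = 0.000237). The anti-apoptotic Bcl2l1 rose by 1.21 ± 0.27, the pro-apoptotic Bik fell by 2.51 ± 0.37 with 2 of 3 CCl4 arrays detected, Bok rose by 1.03 ± 0.33, the pro-apoptotic Bcl2l11 was at least 1.54-fold lower, and Mcl1 (0.04) and Bid (-0.67) did not pass. Of 16 genes of this list 3 were higher, and 1 without CCl4 replicate 1 and 5 without replicate 2. Mdm2, Trp53inp1, Bcl2l1, Bok and Bcl2l11 did not pass without CCl4 replicate 1 (adjusted p of 0.0569 to 0.168), nor Mdm2, Bok and Bcl2l11 without replicate 3 (adjusted p of 0.0501 to 0.114).

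Immediate early genes, which growth factors and cytokines switch on within minutes, rose. Egr1, a zinc finger transcription factor, had 12.36, 13.18 and 13.10 on the CCl4 arrays and 8.53 on the vehicle array (4.35 ± 0.34, adjusted p = 1.25e-05). Jun rose by 2.08 ± 0.50, and Junb was at least 12.4-fold higher, at 9.62, 10.33 and 9.76 after CCl4, against 6.27 after vehicle. Replicate 1 was the lowest of the 3 CCl4 arrays for Fos, Egr1, Jun and Junb alike. Socs3, the inhibitor that interleukin 6 induces through STAT3, stood at 9.96, 10.80 and 8.96 after CCl4 and 6.98 after vehicle (2.93 ± 0.52, adjusted p = 0.00312), and Ccn2, a matrix-associated growth factor partner, rose by 2.51 ± 0.36, as Ier3 did by 1.91 ± 0.32. Of 14 measured 10 were higher, and of the 11 detected on all 4 arrays 7 were higher. Growth factors had low levels: hepatocyte growth factor (Hgf), at 7.34, 7.12 and 7.16 after CCl4, against 5.73 after vehicle, was at least 1.91-fold higher, the EGF receptor ligands Hbegf and Btc at least 1.12-fold and 1.96-fold, and Igf2 at least 3.67-fold. All 4 were not well above background after vehicle, and the receptor Egfr did not pass (-0.33). In all 6 of 16 growth factors and receptors measured were higher and 1 lower, but 6 passed the filter only through the CCl4 arrays. Among the 9 detected on all 4 arrays 0 were called higher and 1 lower. The median change was 0.69 over the 16 and -0.33 over the 9. Of the interleukin 6 pathway, the receptor Il6ra and the oncostatin M receptor Osmr were at least 1.55-fold and 3.24-fold higher, while Stat3 (0.67), which these receptors activate, did not pass, nor did the shared receptor chain Il6st (adjusted p = 0.211). In all 5 of 16 genes of this pathway measured were higher and 2 lower, and 5 passed the filter only through the CCl4 arrays. Among the 11 detected on all 4 arrays 1 was higher and 2 were lower.

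Genes of cell cycle entry, replication and mitosis were higher. Cyclin D1 (Ccnd1), which starts the cycle in hepatocytes, was above background in both groups, with 12.39, 11.63 and 12.32 after CCl4 and 9.67 after vehicle (2.45 ± 0.33, adjusted p = 0.000558). Cyclin E1 (Ccne1), which starts replication, was at least 1.72-fold higher, the transcription factors E2f1 and Foxm1, of S phase and mitosis, at least 2.41-fold and 2.68-fold, and the mitotic kinase Cdk1, with 9.03, 9.67 and 9.71 after CCl4 and 4.94 after vehicle, at least 9.15-fold. For these 4 genes the vehicle array was not well above background. Of the 14 cyclins, kinases and inhibitors that passed the filter, 6 did so only through the CCl4 arrays. Of the 7 detected on all 4 arrays, Ccnd1 and Cdkn1a were called higher.

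Replication genes followed. Mcm5, a subunit of the helicase that opens DNA, stood at 9.58, 9.34 and 9.48 on the CCl4 arrays, against 5.88 on the vehicle array, at least 9.14-fold higher (adjusted p = 8.21e-06), and its partner Mcm6 at 8.34, 8.18 and 8.54 after CCl4 and 5.31 after vehicle, at least 4.23-fold. Uhrf1, which guides the copying of DNA methylation, was at least 8.15-fold higher, and Rrm2, a subunit of ribonucleotide reductase, at least 1.66-fold. Fen1, which removes the primers of the lagging strand, was above background in both groups (9.67, 9.59 and 9.51 after CCl4, 7.24 after vehicle) and rose by 2.34 ± 0.26 (adjusted p = 0.000152), and thymidylate synthase (Tyms) rose by 1.92 ± 0.26. The sliding clamp Pcna, a common marker of dividing hepatocytes, did not pass on this probe (7.54, 7.51 and 7.56 after CCl4, 6.98 after vehicle, adjusted p = 0.154). Of 39 listed genes 26 passed the filter. Among the 15 detected on all 4 arrays 10 were higher, against 7.01% of all such genes, and 1 was lower, the initiation factor Mcm10 (-1.56 ± 0.28). Without CCl4 replicate 1 the higher count over all 26 was 12, against 20 with it. Rrm2 did not pass without CCl4 replicate 1 (adjusted p = 0.0517).

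Mitotic genes had a median change of 2.83 over those that passed the filter and 2.24 over those detected on all 4 arrays, against -0.0208 over all genes tested. Birc5 (survivin), of the complex that corrects chromosome attachment, had 10.38, 11.06 and 10.96 after CCl4 and 5.23 after vehicle, at least 23.1-fold higher (adjusted p = 1.36e-06). Cdc20, which activates the anaphase-promoting complex, had 10.49, 11.09 and 11.08 after CCl4 and 5.39 after vehicle, at least 24.5-fold, and Prc1, which bundles the microtubules between the separating chromosomes, had 10.76, 10.90 and 10.99 after CCl4 and 6.08 after vehicle, at least 24.4-fold. In all of them the groups did not overlap, which their choice among the largest increases required, and replicate 1 was the lowest of the CCl4 arrays. The kinase Plk1 was at least 8.14-fold higher and the microtubule destabiliser Stmn1 at least 19.98-fold. Cdca3, above background in both groups, rose by 4.63 ± 0.26 (adjusted p = 1.36e-06). Of 54 listed genes 47 had a probe and 32 passed the filter, 25 of them only through the CCl4 arrays. Of the 7 detected on all 4 arrays 4 were higher, namely Cdca3, Mad2l1, Cenpa and H2az1, and Bub3, Spc24 and Spc25 did not pass. Replicate 2 was the highest CCl4 array in 20 of the 32 and replicate 1 in 1.

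Late cell cycle genes are known to carry a CCAAT box, bound by NF-Y, and a CHR element (TTTGAA or TTTAAA), bound by the DREAM and MuvB complexes, near their start site, and replication genes an E2F site. These letters were looked for on both strands of the promoter windows of RefSeq (GRCm38.p6), which run from 250 bases before to 50 bases after a start site. Of the 51 windows held for 46 of the 54 mitotic genes, whether or not measured, 76.5% hold CCAAT, against 37.4% of all 32851 windows. CHR letters are in 72.5% of them, against 27.6% of all windows. The E2F letters searched, chosen after the values were seen, were TTTCGCGC, TTTGGCGC and TTTCCCGC. They are in 35.9% of the 39 windows held for 32 of the 39 replication genes, against 1.84% of all windows and 1.96% of the mitotic ones. CCAAT is in 56.4% of these replication windows, also above the 37.4% of all windows, and CHR letters are in 25.6% of them. A match describes letters and is not evidence of binding. The windows of Cdc20, Prc1, Plk1 and Birc5, a choice of mitotic genes with large increases, are shown with CCAAT and CHR letters on either strand in capitals. Stmn1 and Cdca3, which rose more than Plk1, are not shown. The window of Birc5 holds a CHR match and no CCAAT.
Cdc20: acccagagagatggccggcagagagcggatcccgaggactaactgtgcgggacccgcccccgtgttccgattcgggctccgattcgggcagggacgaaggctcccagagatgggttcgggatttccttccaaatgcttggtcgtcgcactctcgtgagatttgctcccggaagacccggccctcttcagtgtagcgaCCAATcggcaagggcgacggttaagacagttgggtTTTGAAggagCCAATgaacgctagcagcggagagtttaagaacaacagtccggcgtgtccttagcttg
Prc1: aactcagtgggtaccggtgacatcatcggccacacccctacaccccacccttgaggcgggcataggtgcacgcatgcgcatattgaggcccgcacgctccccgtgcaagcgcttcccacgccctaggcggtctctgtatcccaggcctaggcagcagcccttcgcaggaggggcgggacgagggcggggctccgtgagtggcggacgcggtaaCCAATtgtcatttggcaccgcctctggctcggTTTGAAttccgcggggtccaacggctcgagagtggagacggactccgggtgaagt
Plk1: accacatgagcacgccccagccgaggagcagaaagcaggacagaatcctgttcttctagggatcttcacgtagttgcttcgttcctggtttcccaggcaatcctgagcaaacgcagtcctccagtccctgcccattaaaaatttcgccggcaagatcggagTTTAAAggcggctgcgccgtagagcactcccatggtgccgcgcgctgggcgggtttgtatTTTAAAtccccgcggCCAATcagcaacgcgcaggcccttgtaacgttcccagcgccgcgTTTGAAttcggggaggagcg
Birc5: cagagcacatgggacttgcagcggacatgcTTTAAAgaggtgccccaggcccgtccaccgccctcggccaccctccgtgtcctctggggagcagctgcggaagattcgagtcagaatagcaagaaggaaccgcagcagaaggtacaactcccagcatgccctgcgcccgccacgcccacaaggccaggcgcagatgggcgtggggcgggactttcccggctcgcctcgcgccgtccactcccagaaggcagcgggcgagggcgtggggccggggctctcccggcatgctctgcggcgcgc
These windows lie at chr4:118437294-118437593 (minus strand) for Cdc20, chr7:80294201-80294500 (plus strand) for Prc1, chr7:122159185-122159484 (plus strand) for Plk1 and chr11:117848987-117849286 (plus strand) for Birc5, and that of Prc1 is 1 of 2 held for the gene. Positions count from the start site, the first transcribed base being 1 and the base before it -1, and give the leftmost base of a match. Cdc20 holds CCAAT at -53 and -8 and TTTGAA at -18, and Prc1 holds CCAAT at -37 and TTTGAA at -5. Plk1 holds TTTAAA at -89 and -29, CCAAT at -14 and TTTGAA at 31. The single CHR match of Birc5, TTTAAA, lies at -220.
For the helicase subunits the capitals mark the E2F letters alone, and CCAAT and CHR letters are left in lower case.
Mcm5: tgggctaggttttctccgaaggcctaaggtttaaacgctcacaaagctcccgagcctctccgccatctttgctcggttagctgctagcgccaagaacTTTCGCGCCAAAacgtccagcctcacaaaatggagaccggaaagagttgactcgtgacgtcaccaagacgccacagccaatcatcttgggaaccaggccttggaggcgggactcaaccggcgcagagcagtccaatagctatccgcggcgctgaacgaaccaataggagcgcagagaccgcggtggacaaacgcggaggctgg
Mcm6: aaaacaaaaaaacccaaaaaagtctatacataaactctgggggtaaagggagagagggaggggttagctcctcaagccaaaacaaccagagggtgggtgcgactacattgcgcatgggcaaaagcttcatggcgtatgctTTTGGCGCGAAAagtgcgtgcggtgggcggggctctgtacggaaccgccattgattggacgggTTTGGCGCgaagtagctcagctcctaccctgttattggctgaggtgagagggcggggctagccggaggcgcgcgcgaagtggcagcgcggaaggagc
These windows lie at chr8:75109259-75109558 (plus strand) for Mcm5 and chr1:128359656-128359955 (minus strand) for Mcm6. Mcm5 holds 2 overlapping matches at -153 and -149, and Mcm6 holds 3, of which those at -110 and -106 overlap and the third lies at -47.

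**Figure D3:**
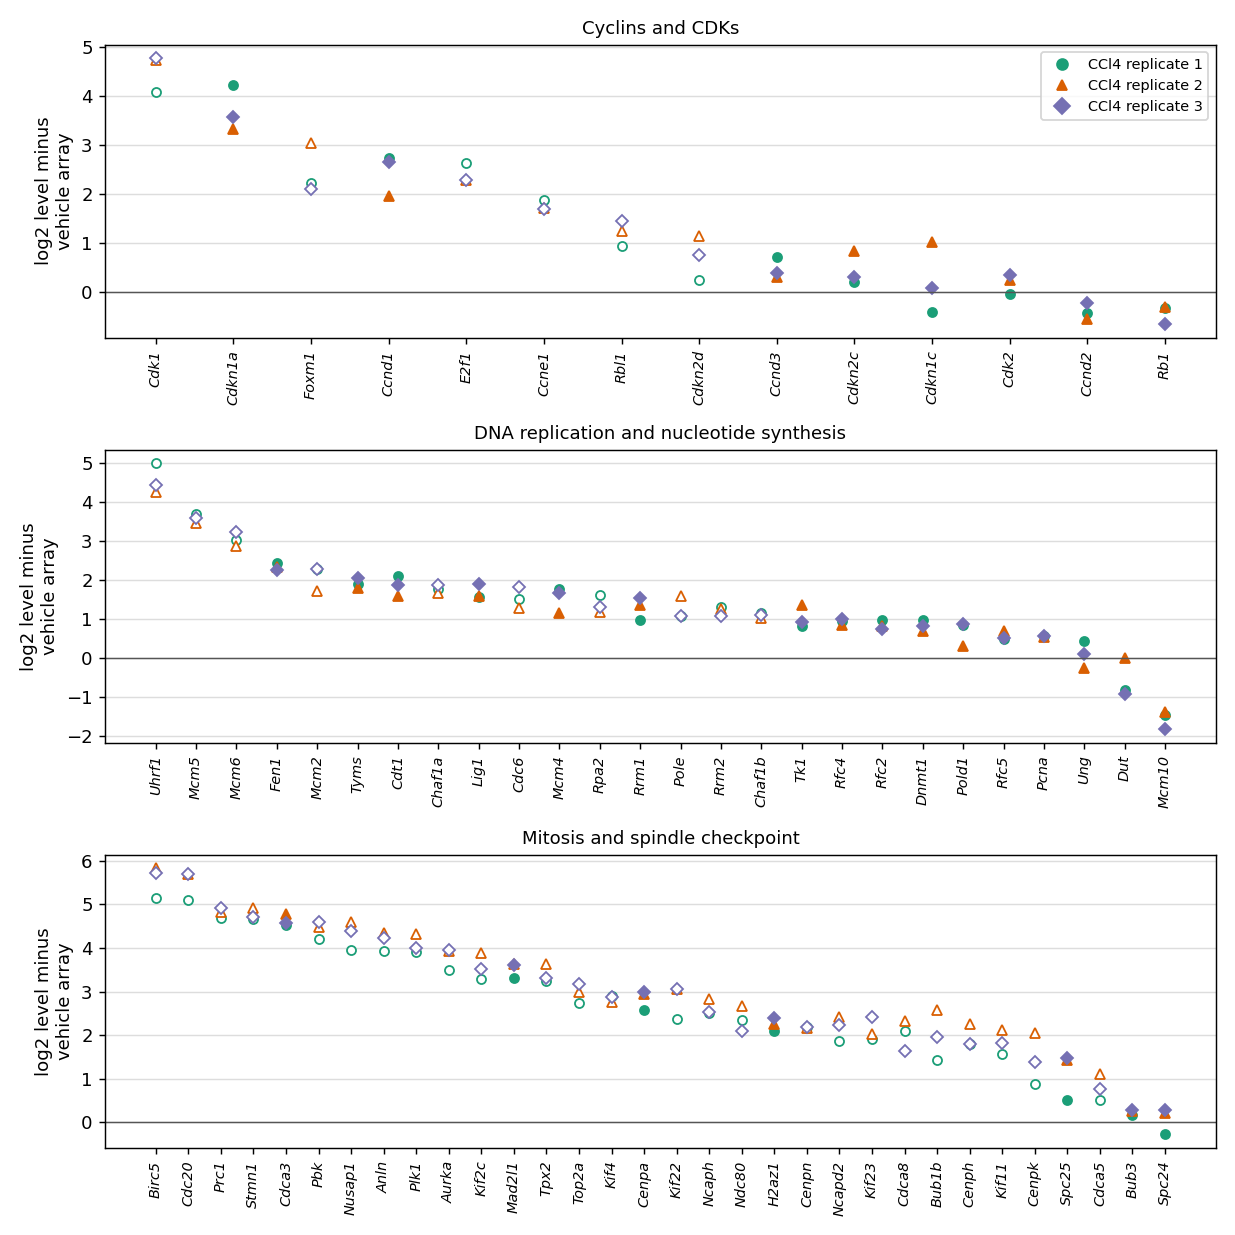
Log2 change of each measured cell cycle gene from the vehicle array, 1 panel per list, for CCl4 replicates 1, 2 and 3. Genes are ordered by their mean change and open symbols mark genes whose vehicle array was not above background. Most genes lie above 0 on all 3 CCl4 arrays, and in the mitosis panel replicate 2 (triangles) is mostly the highest.

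Tubulins, annexins and the keratins of hepatocytes rose. Tubb6, a beta-tubulin, had 11.73, 11.07 and 11.61 on the CCl4 arrays, against 7.35 on the vehicle array (4.12 ± 0.31, adjusted p = 9.54e-06). Tuba1a rose by 2.45, Tuba1b by 1.96, Tubb5 by 2.21 and Tubb4b by 2.05, although near-identical tubulins may share probes. Of 17 cytoskeletal genes measured 13 were higher, and of the 12 detected on all 4 arrays 10 were. Actb, a usual reference gene, had 5 probes that passed the filter, of which 2 were called higher and 1 lower, so no direction is given for it. Anxa2, a calcium-dependent membrane binder, stood at 13.68, 12.72 and 13.22 after CCl4 and 9.65 after vehicle (3.56 ± 0.35, adjusted p = 6e-05), and its relative Anxa3 rose by 2.90 ± 0.44. S100a11, a calcium-binding partner of annexins, stood at 13.54, 12.51 and 13.16 after CCl4 and 8.55 after vehicle (4.52 ± 0.36, adjusted p = 1.58e-05), S100a6 rose by 3.01 ± 0.50, and S100a10 did not pass (1.10, adjusted p = 0.0512). In all 10 of 16 annexins and S100 genes measured were higher. Krt8 and Krt18, the keratin pair of hepatocytes and bile ducts, rose by 2.60 ± 0.34 and 2.42 ± 0.40, whereas Krt23, a keratin of stressed hepatocytes, did not pass (-0.81). The bile duct markers Krt19 and Krt7 were not detected on any array, and Sox9, of bile ducts and progenitors, had 6.35, 6.51 and 5.52 after CCl4, against 4.65 after vehicle, and was detected on 2 of 3 CCl4 arrays. Of fetal genes, Afp was joined by the cell surface proteoglycan Gpc3, at least 3.72-fold higher. In all 6 of 11 fetal and imprinted growth genes measured were higher, but 5 of the 11 passed the filter only through the CCl4 arrays. Among the 5 detected on all 4 arrays 1 was higher. The median change was 1.81 over the 11 and 0.43 over the 5 detected on all 4 arrays. Replicate 2 was the lowest of the 3 CCl4 arrays in 13 of the 17 cytoskeletal genes.

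Acute phase proteins, which hepatocytes secrete on cytokine signals, rose in part. Saa3 had 11.89, 12.37 and 12.44 on the CCl4 arrays, against 8.58 on the vehicle array (3.65 ± 0.29, adjusted p = 1.66e-05), and Saa1 and Saa2, near-identical serum amyloids, were at least 8.16-fold and 7.74-fold higher. Lrg1, a secreted leucine-rich glycoprotein, rose by 2.16 ± 0.29 and haptoglobin (Hp), which binds free hemoglobin, by 0.89 ± 0.26. The groups did not overlap in these genes, as in no called gene. Of 24 acute phase genes measured 9 were higher and 1 lower, Hamp2, and of the 21 detected on all 4 arrays 6 were higher. Of 35 complement and clotting genes 3 were higher, which were the 3 chains of C1q made by macrophages (C1qc by 1.16 and C1qb by 0.94), and 4 were lower, among them C8g (-1.83), the lectin Mbl1 (-1.39) and antithrombin (Serpinc1, -1.10). Leaving out CCl4 replicate 1 gave 0 higher (limma, 3 higher at an unadjusted p under 0.05) and 2 lower. Prothrombin (F2, -0.01), C1s1 (-0.29), Cfb (-0.18) and C2 (-0.47) did not pass. Hp, C1qc, C1qb and Serpinc1 did not pass without CCl4 replicate 1 (adjusted p of 0.0561 to 0.0994), nor Hp without replicate 3 (adjusted p = 0.0779).

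Several genes of neutrophils and macrophages rose. S100a8, a calprotectin subunit of neutrophils, had 10.79, 10.24 and 10.66 on the CCl4 arrays, against 8.22 on the vehicle array, and rose by 2.35 ± 0.29. The other subunit, S100a9, had 9.90, 9.58 and 10.07 after CCl4 and 7.74 after vehicle, and rose by 2.11 ± 0.28. Retnlg, a neutrophil resistin, was at least 2.45-fold higher, and the cytokine receptor Csf3r did not pass (adjusted p = 0.15), while Mpo and Elane, granule enzymes of immature neutrophils, were not detected on any array. In all 4 of 5 neutrophil genes measured were higher, of 20 listed. The 4 include Lcn2, which is also listed here as an acute phase gene. Of the 5, 2 passed the filter only through the CCl4 arrays, and the 3 detected on all 4 arrays, S100a8, S100a9 and Lcn2, were higher. The defining markers with a probe summed to an intensity of 2721, 1976 and 2701 on the CCl4 arrays, against 503.6 on the vehicle array. Only S100a8 and S100a9 were detected among them, so the sum repeats these 2 genes. Of the macrophage genes Cd63, a lysosomal tetraspanin that many cells make, rose by 4.23 ± 0.33 (adjusted p = 1.16e-05) and the galectin Lgals3 by 2.48 ± 0.29. The phagocytic receptor Trem2, the endotoxin co-receptor Cd14 and the elastase Mmp12 were at least 1.84-fold, 6.22-fold and 1.85-fold higher, and the lysozymes Lyz1 (0.44) and Lyz2 (0.26) did not pass. The monocyte markers Ccr2 and Itgam were not detected. In all 10 of 23 macrophage genes measured were higher, and 6 without CCl4 replicate 1. Of the 23, 6 passed the filter only through the CCl4 arrays, and of the 17 detected on all 4 arrays 5 were higher. Of 10 Kupffer cell genes 0 were called (limma, 2 higher and 0 lower at an unadjusted p under 0.05): Clec4f, the lectin that defines these cells, stood at 9.77, 9.77 and 9.72 after CCl4 and 9.45 after vehicle (adjusted p = 0.449), with Vsig4 at 0.73 and Timd4 at -0.37. Of the 3 lymphocyte genes measured, of 27 listed, the kinase Zap70 fell by 1.10 ± 0.35, the plasma cell receptor Tnfrsf17 was at least 2.17-fold lower, and the perforin Prf1 did not pass (-0.07). Zap70 did not pass without CCl4 replicate 1 (adjusted p = 0.146).

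Of 11 chemokine genes measured 4 were higher and 1 lower. Of the 11, 3 passed the filter only through the CCl4 arrays, and of the 7 detected on all 4 arrays 2 were higher and 1 lower. The median change was 0.52 over the 11 and -0.30 over the 7. Cxcl1, which attracts neutrophils, had 13.51, 14.02 and 13.68 on the CCl4 arrays, against 10.54 on the vehicle array (3.19 ± 0.28, adjusted p = 3.07e-05), and Ccl9 rose by 1.47 ± 0.28. The chemokine Ccl4 was at least 1.6-fold higher, Cxcl13 at least 2.25-fold, Cxcl9, which interferon gamma induces, fell by 1.28 ± 0.36, and Ccl5 did not pass (-0.40). The adhesion molecules Vcam1 and Icam1 rose by 2.16 ± 0.26 and 1.51 ± 0.27 and the NF-kB regulator Nfkbiz by 1.18 ± 0.25, while the NF-kB inhibitor Nfkbia (-0.29) and subunit Rela (-0.23) did not pass. Of 25 interferon-stimulated genes 1 was higher, Oasl1 (at least 1.98-fold), and 3 were lower, among them the immunoproteasome subunit Psmb9, at 6.60, 7.02 and 6.69 after CCl4 and 9.13 after vehicle (-2.36 ± 0.28, adjusted p = 0.000214), and the GTPase Igtp (-0.97). Irf7 (-0.20), Isg15 (0.33) and Ifit2 (0.46) did not pass. The lower count was 1 without CCl4 replicate 1. Of the genes that interleukins 4 and 13 regulate, the receptor chain Il13ra1 (0.01), Arg1 (0.18) and the mannose receptor Mrc1 (-0.14) did not pass, and Il1rn, the interleukin 1 antagonist, was at least 2.53-fold higher. Tgm2, a transglutaminase, rose by 0.93 ± 0.29 and Cish, a cytokine signalling inhibitor, fell by 1.02 ± 0.28. In all 2 of 10 genes of this list were higher (20%, against 10.4% of all genes tested) and 1 lower, and 1 was higher without CCl4 replicate 1. Il1rn passed the filter only through the CCl4 arrays. Of the 9 genes detected on all 4 arrays 1 was higher and 1 lower, against 7.01% and 7.11% of all such genes. Cxcl13, Cxcl9, Igtp, Tgm2 and Cish did not pass without CCl4 replicate 1 (adjusted p of 0.098 to 0.146), nor Cxcl13, Cxcl9 and Igtp without replicate 3 (adjusted p of 0.0563 to 0.0905).

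Of 15 genes of stellate cells and myofibroblasts measured, 6 were higher and 1 lower, and 4 were higher without CCl4 replicate 1. Acta2, the smooth muscle actin of activated stellate cells, had 10.13, 9.84 and 9.62 after CCl4, against 6.29 after vehicle (3.58 ± 0.28, adjusted p = 1.5e-05). The proteoglycan Lum rose by 1.63 ± 0.26 and Sparc by 1.27 ± 0.30, Vim and the crosslinking Loxl1 were at least 3.78-fold and 1.57-fold higher, and Lrat, which stores vitamin A in quiescent stellate cells, fell by 0.97 ± 0.28 and was detected on 1 of 3 CCl4 arrays. Des, a marker of stellate cells at rest and when active, did not pass (0.85, adjusted p = 0.0517). Col1a1, the main chain of scar collagen, stood at 6.95, 6.64 and 6.69 on the CCl4 arrays and 4.85 on the vehicle array, at least 1.4-fold higher. Col3a1 rose by 1.47 ± 0.27, Col5a1 by 1.51 ± 0.26, and the basement membrane chains Col4a1 and Col4a2 by 1.12 ± 0.25 and 1.49 ± 0.29. Of 13 collagen genes and collagen-processing enzymes measured 8 were higher, and of the 10 detected on all 4 arrays 6 were higher. Timp1, which blocks matrix proteases, had 8.57, 7.92 and 8.57 after CCl4 and 4.70 after vehicle, at least 4.23-fold higher (adjusted p = 2.69e-05). Pcolce, which helps to trim procollagen, was at least 1.23-fold higher. The collagenase Mmp13 was at least 1.66-fold higher and the membrane protease Mmp14 rose by 1.48 ± 0.31, while the gelatinase Mmp2 did not pass (adjusted p = 0.177). The urokinase Plau, which activates plasminogen and growth factors, was at least 1.62-fold higher. In all 5 of 9 matrix proteases and inhibitors measured were higher, and 1 of the 4 detected on all 4 arrays. Sparc, Lrat and Col4a1 did not pass without CCl4 replicate 1 (adjusted p of 0.0526 to 0.123).

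Of the TGF-beta family, which drives matrix production and halts hepatocyte division, the ligand Tgfb1 (0.80), the activin subunit Inhba (0.76) and the receptor Tgfbr1 (0.74) did not pass. The activin subunit Inhbb, at 8.20, 7.28 and 7.94 after CCl4, against 4.81 after vehicle, was at least 2.89-fold higher, the receptor Tgfbr2 rose by 1.47 ± 0.26 and the target Id1 by 2.04 ± 0.36. The follistatin-like Fstl1 was at least 1.96-fold higher. Inhbe, a hepatocyte activin chain, fell by 1.32 ± 0.29. In all 5 of 22 genes were higher, and 3 without CCl4 replicate 1. Most markers of sinusoidal endothelium did not pass: Stab2, a scavenger receptor, had 8.29, 8.29 and 8.56 on the CCl4 arrays, against 8.34 on the vehicle array (adjusted p = 0.934). Lyve1, the hyaluronan receptor, was an exception, at 8.18, 7.72 and 8.22 after CCl4 and 5.18 after vehicle, at least 3.41-fold higher (adjusted p = 7.72e-05). Plvap, of vessel fenestrae, rose by 1.26 ± 0.27 and the Fc receptor Fcgr2b by 1.0040 ± 0.26, while Pecam1 did not pass (0.68). In all 3 of 23 endothelial genes were higher, a share near the background. Fstl1 and Fcgr2b did not pass without CCl4 replicate 1 (adjusted p of 0.0614 to 0.0694).

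Several core functions showed few calls. Of 48 respiratory chain genes 0 were higher (limma, 0 at an unadjusted p under 0.05) and 1 lower, Ndufb2 (-1.02 ± 0.30, adjusted p = 0.0378), and 3 were lower without CCl4 replicate 2. Of 34 proteasome genes the 2 lower ones were Psmb9 and Psmc6 (-1.23 ± 0.26). Neither the chain subunits Ndufa4 (-0.30), Cox4i1 (-0.25) and Atp5a1 (0.05) nor the proteasome subunits Psmb5 (0.13), Psmd14 (-0.31) and Psma2 (0.26) passed. Of 19 genes of ribosome assembly 1 was higher, the nucleolar protein Nop58 (1.20 ± 0.26), with a median of 0.36. Ncl (0.16), Npm1 (0.26) and Fbl (0.35) of the nucleolus did not pass. Without CCl4 replicate 2, the lowest CCl4 array in 14 of them, 6 were higher. Among hepatocyte identity genes, Ttr had 13.97, 14.14 and 14.04 after CCl4 and 13.85 after vehicle. Hnf4a, the master regulator of hepatocytes, had 11.78, 11.62 and 11.33 after CCl4 and 11.24 after vehicle, and neither passed the test. Cebpa, a factor that holds hepatocytes out of the cell cycle, was the 1 gene of 14 that was lower, at 6.37, 7.0028 and 6.92 after CCl4, against 8.46 after vehicle (-1.70 ± 0.31, adjusted p = 0.00338). Of the lysosome, Cd63 and the protease Lgmn (1.83 ± 0.27) rose, 2 of 27 measured, the cathepsin Ctsf fell by 1.04 ± 0.27, and Ctsd (0.23), Ctsb (0.25) and Lamp1 (0.30) did not pass. Ndufb2, Nop58 and Ctsf did not pass without CCl4 replicate 1 (adjusted p of 0.0506 to 0.119).

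Of 14 clock genes measured, 3 were higher and 4 lower, and without CCl4 replicate 1 the higher count was 0 (limma, 3 higher at an unadjusted p under 0.05). Dbp, an output factor of the circadian clock, had 7.88, 7.43 and 7.41 on the CCl4 arrays, against 9.45 on the vehicle array (-1.88 ± 0.29, adjusted p = 0.00127), and the clock repressors Nr1d1 (-1.23 ± 0.27) and Nr1d2 (-1.71 ± 0.29) fell, as did Cry2 (-1.10 ± 0.27, detected on 2 of 3 CCl4 arrays). The clock repressor Per1 was at least 1.63-fold higher and the kinase Csnk1d rose by 0.93 ± 0.26. The core activators Arntl (0.21) and Clock (0.31) did not pass, and the labels do not give the hour of day at which the livers were taken. Hepcidin (Hamp), the hormone that limits iron export, stood at 13.78, 14.14 and 14.12 after CCl4 and 13.95 after vehicle (adjusted p = 0.905), whereas its copy Hamp2 had 8.47, 11.43 and 8.85 after CCl4 and 14.06 after vehicle. The transferrin receptor Tfrc rose by 0.98 ± 0.28 and Tmprss6, which curbs hepcidin, fell by 1.28 ± 0.26, while the ferritin chain Fth1 did not pass (-0.13). Of 18 iron genes 4 were higher and 3 lower, and 1 was higher without CCl4 replicate 1. Of red cell transcripts, the hemoglobin gene Hba-a1 had 12.95, 14.18 and 13.72 after CCl4, against 14.21 after vehicle, and did not pass (adjusted p = 0.318). Alas2, of heme synthesis in red cells, fell by 1.88 ± 0.36, the beta-globin Hbb-b2 fell by 1.56 ± 0.34, and Slc4a1, the anion exchanger of red cells, was at least 2.07-fold lower. The pancreatic elastase Cela1, at 8.04, 8.57 and 9.12 after CCl4 and 10.86 after vehicle, fell by 2.29 ± 0.37, and the mesothelial Upk3b was at least 1.88-fold lower, while the pancreatic Cpa1 was not detected on any array. The part of blood or of tissue other than liver in these results was not tested. Per1, Csnk1d, Tfrc and Upk3b did not pass without CCl4 replicate 1 (adjusted p of 0.0699 to 0.121), nor Per1 without replicate 3 (adjusted p = 0.0626).

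The 3 CCl4 arrays differed among themselves. Their levels correlated at 0.975 to 0.982 over the 6967 genes, which share the normalization, and replicate 2 correlated at 0.909 with the vehicle array, against 0.88 for replicate 1 and 0.887 for replicate 3. Replicate 2 was the CCl4 array nearest to the vehicle array in 53.9% of the 1352 called genes, replicate 3 in 28.4% and replicate 1 in 17.7%. The standard deviation over the CCl4 arrays had a median of 0.21 and was at least 1 in 17 genes. Cyp1a2 varied most, followed by Inmt, a methyltransferase of tryptamine, at 7.25, 10.54 and 7.30, Cyp2b10, the P450 that phenobarbital induces, at 6.97, 10.38 and 7.48, Hamp2 and Fos. Cyp2b10 stood above the vehicle array (9.94) in replicate 2 and below it in the other two, and was not called (adjusted p = 0.243). Cyp2c29 (6.74, 9.16 and 6.59), the carbonic anhydrase Car3 (7.75, 10.21 and 8.21), the uridine phosphorylase Upp2 (6.76, 9.21 and 7.26), the corticosteroid carrier Serpina6 (7.28, 9.31 and 6.96), Cyp3a25 (9.04, 11.33 and 9.31) and Hpd (9.30, 11.44 and 9.47) also had their highest CCl4 level in replicate 2. The vehicle array exceeded all 3 in each of these 6 genes. With a prior variance that follows the level and is robust to outliers, the widely spread Cyp1a2, Inmt, Hamp2, Fos, Car3, Upp2, Serpina6, Cyp3a25, Hpd, Cyp7a1, G6pc, Sqle, Socs3, Jun and Sult2a8 did not pass, at adjusted p from 0.0548 to 0.361. By list, the median change on replicates 1, 2 and 3 was -1.20, -0.49 and -1.35 for P450 enzymes, -0.74, -0.14 and -0.89 for the urea cycle and amino acid breakdown, -1.46, -0.83 and -1.42 for bile acids and 2.54, 2.89 and 2.93 for mitosis. Replicate 2 lay nearest the vehicle array in the first 3 lists and not in the last. The red cell markers summed to an intensity of 8001, 18750 and 13620 on the CCl4 arrays, against 19670 on the vehicle array, and the part of blood in this order was not tested.

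**Figure D4:**
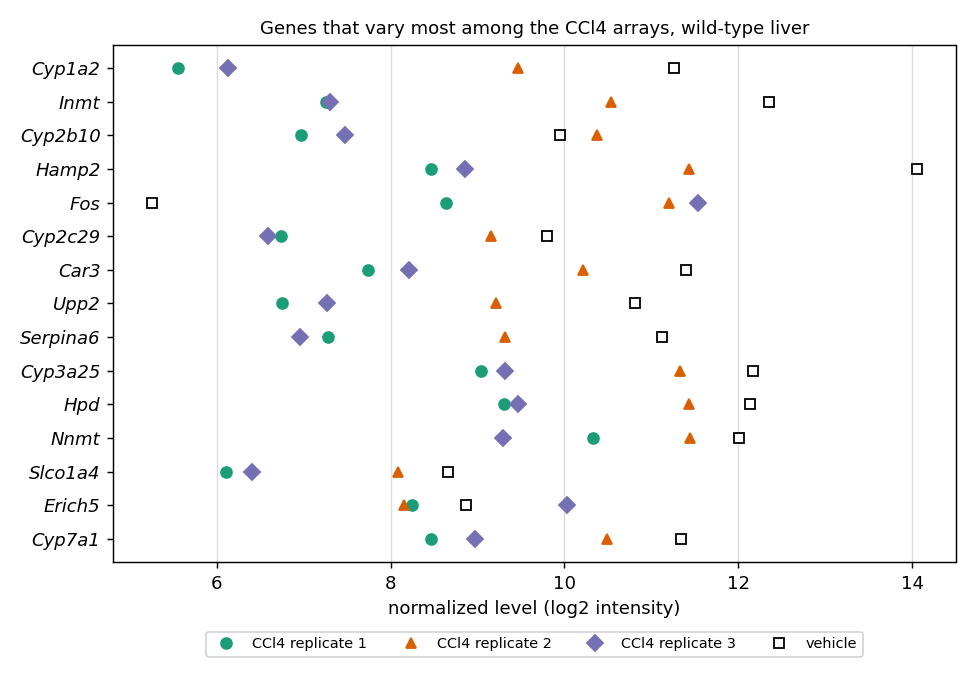
Normalized log2 level of the genes with the largest standard deviation over the 3 CCl4 arrays, ordered by it from the top. Circles, triangles and diamonds are CCl4 replicates 1, 2 and 3 and open squares the vehicle array. In most rows replicate 2 (triangles) lies above the other CCl4 arrays, between them and the vehicle array, though not in those of Fos, Cyp2b10 and Erich5.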

How the data were processed

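Total RNA of liver was labelled as biotinylated cRNA and hybridised to Illumina bead arrays, per the labels' protocols. The deposited intensity of each probe is on a linear scale and was not normalized between arrays, per the file headers. The scanner software and any earlier background step are not named in the labels. The detection p-value beside each intensity was deposited with it, per the file headers. The deposited value table holds the same intensities minus 1 constant per array, and the reason for the constant is unknown. It was used as an alternative.

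The 4 wild-type arrays were normalized together with neqc of limma 3.58.1 (R 4.3.3): normexp background correction with controls inferred from the detection p-values, offset 16, quantile normalization and log2. A probe was kept (9088 of 25697) where its detection p lay below 0.01 on the vehicle array or on all 3 CCl4 arrays. GEO's platform annotation gives 1 gene symbol for 23978 probes and none for 1719, and 23962 matched RefSeq. Each of 6967 genes was read from its brightest kept probe, and 1631 genes had several. Levels were tested with lmFit and eBayes and Benjamini-Hochberg adjustment, with 2 residual degrees of freedom and 8.97 prior ones. A bound ("at least") sets the mean of the brighter group against the lowest level well above background on the arrays of the other, or the probe's own level where higher. The script was tested on simulated data.

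The members and the 58 gene lists were chosen with earlier results of these data known. Named are the 12 largest increases and decreases among called genes, without predicted genes. Their 3 CCl4 arrays had to lie on the same side of the vehicle array. Of each list described, the first 3 members measured are named and, of the 5 with the smallest p, at least those called. Chosen after their values were seen were Abcg5, Actb, Axin2, Bub3, C2, Car3, Cenpa, Clock, Cyp2b10, Cyp2c29, Cyp3a25, Erich5, H2az1, Inmt, Mad2l1, Mcm10, Serpina6, Spc24, Spc25 and Upp2. Alternatives changed the normalization, offset, filter, probe choice, variance model, arrays fitted and replicates.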

Additional observations from a re-analysis of the deposited data

How the results depend on the processing

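The numbers of genes called, 724 higher and 628 lower, stayed within 1.5 times under another normalization, the deposited value table, offset 50, a detection p under 0.05, the mean over probes, the trended and robust variance and the fit of all 8 arrays. With no filter on detection, which raises the number of genes tested to 16593, 245 were higher and 157 lower. With detection required on all 4 arrays, which leaves 5971 genes, 384 were higher and 397 lower. Leaving out 1 CCl4 array at a time gave 395 to 948 higher and 252 to 929 lower, the lowest counts without replicate 1 and the highest without replicate 2. The cause was not tested. Higher genes were 53.6% of the calls, and 63.5% after median scaling.

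Of 4118 values of the 323 genes named, 3748 kept their direction and their side of the threshold, 303 lost a call, 44 gained one and 23 turned in sign, all in genes not called. After median scaling Acadm changed by -0.0507, Arg1 by -0.0579, Atp5a1 by -0.0269, Cps1 by -0.0404, Erich5 by 0.0650, Hamp by -0.0619, Irf7 by 0.0364 and Prf1 by 0.111. With the mean over probes Hspa8 changed by 0.172. With 1 CCl4 array left out, the change ran from -0.0101 to 0.269 for Arg1, from -0.0838 to 0.142 for Atp5a1, from -0.0139 to 0.370 for Cps1, from -0.665 to 0.273 for Erich5, from -0.0483 to 0.0632 for F2, from -0.0112 to 0.176 for Hamp, from -0.106 to 0.102 for Il13ra1, from -0.468 to 0.0123 for Irf7, from -0.291 to 0.0405 for Mrc1, from -0.421 to 0.149 for Prf1, from -0.0331 to 0.262 for Spc24 and from -0.0501 to 0.0876 for Stab2. Their cause was not tested. No paired analysis was possible because the groups share 1 replicate number and the vehicle group holds 1 array. A single vehicle array carries every comparison, and leaving it out is not possible. Genes near background have only bounds, and the number of arrays limits which changes could be called.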
